A study of Mus musculus with 8 samples.

Results

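The cells described here are cluster C10 of the mouse mammary epithelium, a small group of alveolar progenitors found at mid-gestation. Membership was taken from the deposited cell annotation: a cell was a member if it was assigned to C10 and had passed all quality flags of the study. C10 held 89 cells in the first and 126 cells in the second gestation (G) mouse, 215 in all, out of 23183 luminal and basal cells in clusters C1 to C15 and 25009 cells that passed the flags in the whole series. Another 9 cells of C10 came from the other stages (3 from nulliparous, 5 from lactating and 1 from a post-involution mouse) and were not used. The study profiled EpCAM-positive mammary cells of C57BL/6N mice by droplet-based single-cell RNA sequencing at 4 stages, with 2 mice per stage and 1 library per mouse. The G mice were at day 14.5 of gestation, and the other stages were nulliparous (NP, aged 8 weeks), lactation (L, day 6) and post-involution (PI, 11 days after weaning). The labels name no transgene or treatment in any group, and all groups were of the same strain. The luminal progenitors of the NP mice (cluster C6, 372 and 316 cells) and the progenitor-like cluster C11 of the L mice (142 and 89 cells) served as points of reference from other libraries, and the main comparisons were made within each G mouse, against the differentiating alveolar cells (C8), the basal cells (C13), the few hormone-sensing cells (C5) and all other luminal and basal cells together.

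The mammary epithelium is a bilayer of inner luminal and outer basal (myoepithelial) cells. Luminal cells divide into a hormone-sensing lineage, which carries the receptors for oestrogen and progesterone, and a secretory lineage. During pregnancy, progesterone, prolactin and the RANK ligand released by hormone-sensing cells drive the secretory lineage to divide and to form alveoli. Luminal progenitors of the secretory lineage are usually recognised by the stem cell factor receptor Kit, by aldehyde dehydrogenase activity and by the transcription factor Elf5, and as they become alveolar cells they switch on the caseins, whey proteins and the enzymes of milk fat synthesis.

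Values are counts of unique molecular identifiers (UMIs, one per captured transcript) summed over the cells of a cluster in a mouse and scaled to counts per 1000000 UMIs of that sum (CPM). Paired values are those of the first and second mouse, in that order. A log2 ratio was taken within each mouse after adding 5 CPM to both levels, and a gene was called higher or lower if the ratio was at least 2-fold in the same direction in both mice. Clusters had been formed from the expression of the same genes, so differences between clusters are given as a description and without a p-value.

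C10 made up 3.47% of the luminal and basal cells of the first mouse (89 of 2565, exact 95% interval 2.80% to 4.25%) and 4.86% of those of the second (126 of 2592, 4.07% to 5.76%). The intervals overlapped, and they cover counting error only. Of the alveolar cells of C8 and C10 together, 4.42% and 6.48% lay in C10. C8, C13 and C5 held 1926 and 1818, 525 and 594, and 20 and 41 cells. The annotation shows that C10 and C8 were divided from 1 coarse cluster in a second clustering step. The study had excluded cells whose barcode occurred in more than 1 library, so by that rule no C10 cell shared its barcode with another library. The median C10 cell had 9657 and 8870 UMIs and 2859 and 2773 genes, close to C8 (10900.5 and 8676.5 UMIs) and deeper than C13 (6201 and 6060) and C5 (6223.5 and 5514). The cluster that the study set aside as doublets, C20, was deeper still in both mice (12627 and 11121 UMIs). Mitochondrial transcripts took a median of 0.575 and 0.552% of the UMIs of a C10 cell, less than in C8 (0.814 and 0.757%) and in C13 (0.959 and 0.905%). In the first mouse 1 cell with 116555 UMIs supplied 8.92% of the sum of C10, and the next deepest held 43307. The counts of genes below were within 1.5-fold without the deepest cell of each mouse.

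Against C8, its closest neighbour, C10 had 200 genes at a higher level and 101 at a lower level among 7562 genes with a mean of at least 10 CPM, or 2.64% and 1.34% of the genes compared. *3110079O15Rik*, *Fcgbp*, *Mme*, *Ptn* and *Aldh1a3* had the largest ratios upwards, and *Csn1s2a*, *Glycam1*, *Fabp3*, *Csn2* and *Thrsp*, all genes of milk protein or lipid, the largest downwards. Across the 7562 genes the log2 ratios of both mice followed each other (Pearson's r = 0.85); genes are not independent replicates, and the sums of both mice share the division into C10 and C8. The median ratio of all genes was 0.08, and 45.1% of them were above 0 and 30.3% below 0 in both mice. Milk proteins took up 9.67% and 5.74% of the UMIs of C8, and the balance between both directions moved with the scaling. With TMM factors, which rescale the totals to the bulk of the genes, 148 genes were higher and 139 lower, so that the share of higher genes among those called was 51.6% in place of 66.4%, and the median ratio of all genes was -0.07.

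**Figure D1:**
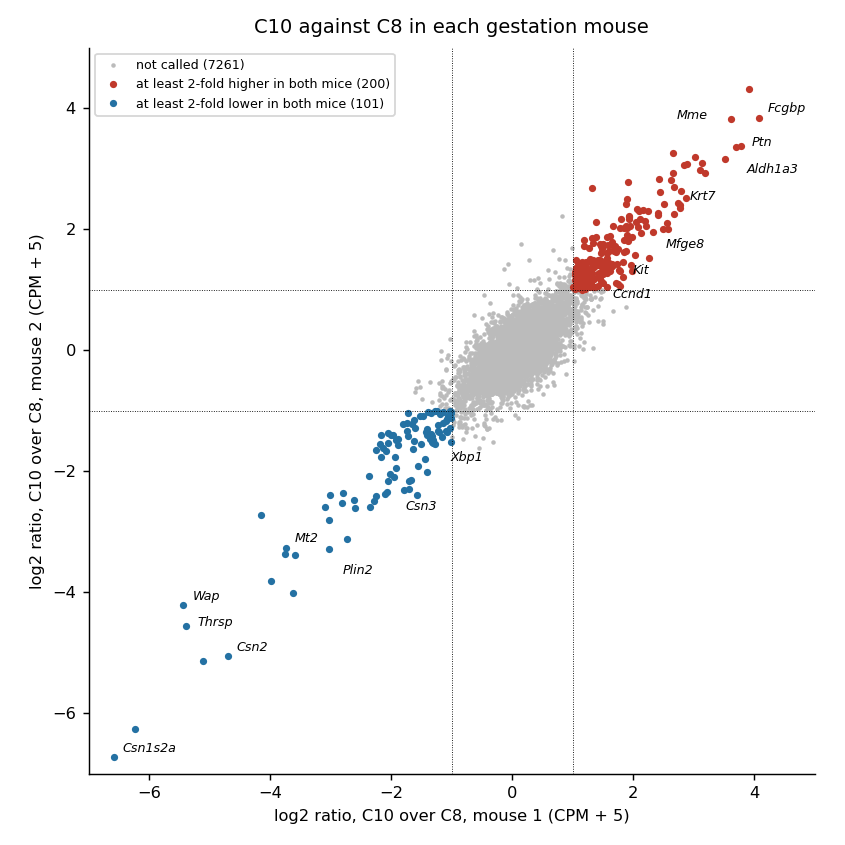
Log2 ratio of C10 over C8 for each of 7562 genes in the first (x axis) and second (y axis) gestation mouse, on CPM with 5 added; dotted lines mark 2-fold, and coloured points are the 200 higher and 101 lower genes. Fcgbp, Aldh1a3, Mme and Ptn lie at the top right and the milk protein genes Csn1s2a and Csn2 at the bottom left.

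The 4 genes given as markers of the cluster are described first. Their ratio to C8 follows from the division of the clusters and is no test of the label. *Kit*, the receptor for stem cell factor (chromosome 5, 75574916 to 75656722 of GRCm38), was at 206 and 233 CPM in C10 and 66.1 and 86.7 CPM in C8. It was at 1.77 and 4.8 CPM in C13 and 0 and 3.87 CPM in C5. C10 was thus the highest of the G clusters for *Kit* in both mice, and its level was also above that of the NP progenitors of C6 (63.7 and 78.8 CPM) and of C11 in lactation (120.3 and 112 CPM). *Aldh1a3*, which encodes a retinaldehyde dehydrogenase (chromosome 7, 66390890 to 66427517), was at 379 and 467 CPM in C10 against 24.8 and 41.3 CPM in C8, a log2 ratio of 3.69 and 3.35. In contrast to *Kit*, its level in C10 was below that in C6, at 2035 and 1759 CPM, and below that in C11 (586 and 968 CPM). *Fcgbp*, which encodes a mucus protein that binds the Fc part of IgG (chromosome 7, 28071236 to 28120862), was at 557 and 747 CPM in C10 and 28.5 and 47.5 CPM in C8. Its log2 ratio was 4.07 and 3.84, and its level was less than 2-fold from that of C6 (634 and 434 CPM). In C11 *Fcgbp* was at 799 and 1511 CPM, above both values of C10. *Tm4sf1*, a tetraspanin-like surface protein (chromosome 3, 57285611 to 57301988), separated C10 (879.8 and 1333 CPM) from C8 (139 and 185 CPM) but was less than 2-fold from its level in basal C13 (788 and 859 CPM). All 4 genes passed the 2-fold rule against C8 in both mice. They were not particular to C10 among the progenitor clusters. Their sum was 2021 and 2780 CPM in C10, 7632 and 6118 CPM in C6 and 2385 and 4418 CPM in C11. Most of the sum in C6 came from *Tm4sf1*, which was thus higher there than in C10.

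**Figure D2:**
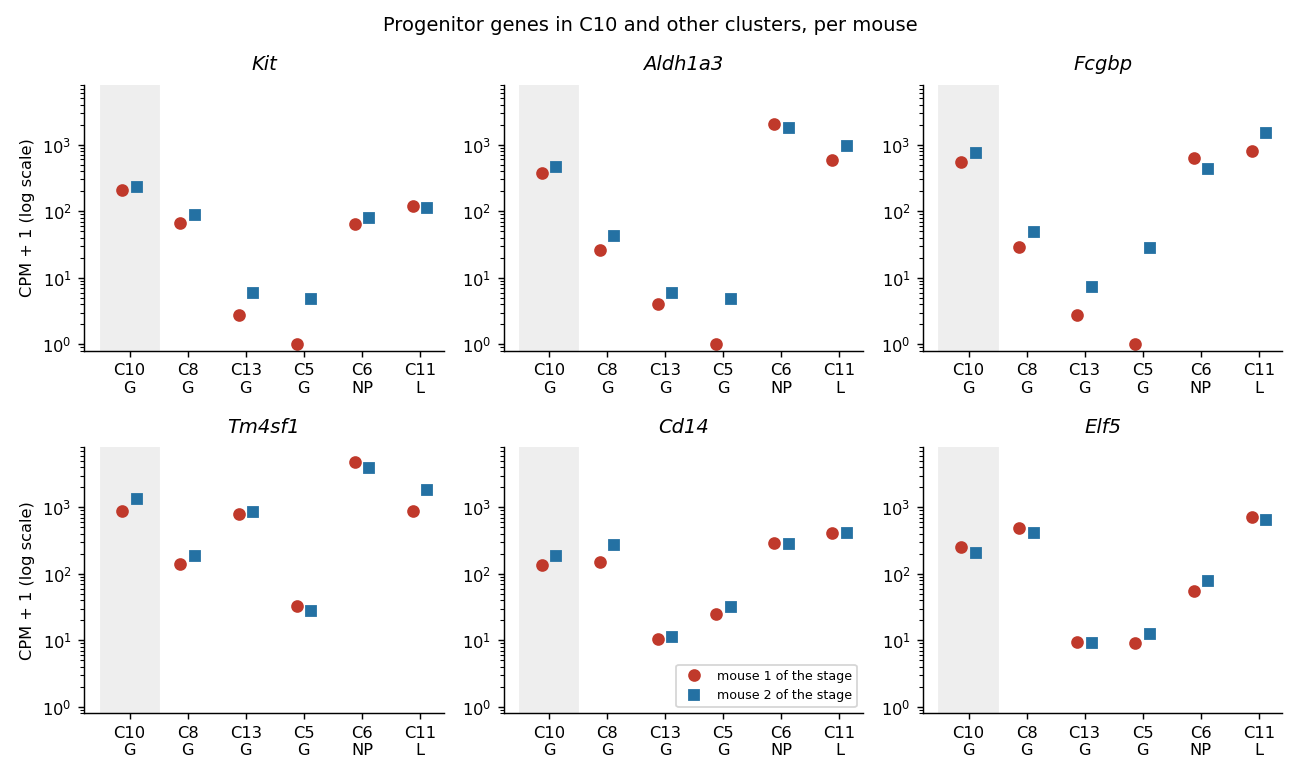
Levels of 6 genes of the secretory lineage in each mouse (CPM with 1 added, log scale) for C10, C8, C13 and C5 of the gestation mice, C6 of the nulliparous mice and C11 of the lactating mice; each point is the sum over the cells of a cluster in 1 mouse. In C10, Kit, Aldh1a3, Fcgbp and Tm4sf1 lie above C8 in both mice, while Cd14 and Elf5 lie below it.

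The longer list of luminal progenitor genes was less uniform. Of 11 members with enough counts, 3 were higher in C10 than in C8 (*Kit*, *Aldh1a3* and *Tspan8*) and 0 lower, with a median log2 ratio of 0.67. Of all genes compared, 2.64% were higher and 1.34% lower. *Kit* and *Aldh1a3* are given markers, so their part in the count and median of this list follows from the division of the clusters. *Tspan8*, a tetraspanin, was at 75 and 74.2 CPM against 24.9 and 28.1 CPM. Its call was lost when every cell was thinned to 3000 UMIs and with a pseudocount of 20 CPM. *Cd14*, the lipopolysaccharide co-receptor used to sort luminal progenitors, was not higher in C10 (136 and 182 CPM) than in C8 (149.6 and 267 CPM). *Foxc1*, a forkhead factor, was at 98.7 and 107 CPM in C10 and 61.9 and 63.7 CPM in C8, below the 2-fold limit. *Creb5*, a CRE-binding factor, was at 216 and 283 CPM in C10 and 111 and 139.8 CPM in C8, again below it. *Sox10* did not separate both clusters either (68.9 and 76.7 against 56.2 and 68.3 CPM). *Lif*, the cytokine leukaemia inhibitory factor, was at 30.6 and 28.1 CPM in C10 and at 174 and 176 CPM in C6.

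The same genes were found cell by cell. After thinning each cell to 3000 UMIs, which left no cell out, *Kit* was detected in 48.3% and 54.0% of C10 cells and 16.3% and 21.1% of C8 cells, against 0.571% and 1.35% of C13 cells. The source of the *Kit* UMIs in C13 was not tested. Without thinning the shares were 82.0% and 82.5% in C10, 46.4% and 51.2% in C8 and 1.33% and 3.37% in C13. *Aldh1a3* was found in 51.7% and 54.8% of thinned C10 cells and in 4.98% and 8.47% of C8 cells. *Fcgbp* was found in 71.9% and 65.9% of thinned C10 cells and in 5.97% and 10.3% of C8 cells. C10 was thus above C8, and C8 above C13, in both mice for all 3 genes. At full depth 93.3% and 81.7% of C10 cells had a UMI of *Fcgbp*, against 1.14% and 3.20% of C13 cells. For *Aldh1a3* these shares were 79.8% and 78.6% in C10 and 2.10% and 2.02% in C13. The genes were not carried by a few cells: the cell with most *Fcgbp* UMIs held 6.32% of them in the first mouse and 7.01% in the second. All 4 of *Kit*, *Aldh1a3*, *Fcgbp* and *Tm4sf1* were found together in 19 of 89 and 30 of 126 thinned C10 cells, and in 2 of 1926 and 4 of 1818 thinned C8 cells. At full depth they were found together in 57 of 89 and 78 of 126 C10 cells, and in 85 of 1926 and 120 of 1818 C8 cells, against 0 of 525 and 1 of 594 C13 cells.

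Among the 15 genes with the largest ratios of C10 over C8, 6 had a level in C13 of at most 10% of that in C10 in both mice, against 2.54% of all genes compared: *3110079O15Rik*, *Fcgbp*, *Aldh1a3*, *Lect1*, *Crip1* and *Slc5a7*. The 15 genes were chosen for a high level in C10, which by itself favours a low C13 percentage. The shares are therefore no measure of enrichment. *3110079O15Rik* (a gene without a known role) was at 128 and 155 CPM in C10, 3.82 and 3.05 CPM in C8 and 1.01 and 1.14 CPM in C13. It was also present in C6, at 428 and 679.7 CPM. *Slc5a7* (the choline transporter) was at 34.4 and 43.0 CPM in C10, 1.25 and 1.32 CPM in C8 and 0.253 and 0.458 CPM in C13. *Crip1* (a LIM domain protein) was at 464 and 625 CPM in C10, 60.6 and 70.2 CPM in C8 and 42.7 and 47.1 CPM in C13. These 3 genes were found again in C6 or C11: *Slc5a7* was at 50.4 and 51.0 CPM in C6, and *Crip1* at 1795 and 3502 CPM in C11. *Lect1*, which encodes the angiogenesis inhibitor chondromodulin, was different. It was at 70.4 and 95.5 CPM in C10, but at 4.31 and 6.01 CPM in C8, 4.83 and 3.32 CPM in C6 and 2.78 and 0 CPM in C11. *Ltbp1*, which binds latent TGF-β, was also highest in C10, at 156 and 194 CPM against 13.3 and 18.4 CPM in C8 and 114 and 91.2 CPM in C6.

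A second set of genes was shared by C10 and the basal cells and was low in C8. Of the 15 genes with the largest ratios, 7 had a level in C13 of at least 50% of that in C10 in both mice (*Mme*, *Ptn*, *Gas6*, *Clca3a2*, *S100a6*, *Vim* and *Sostdc1*), a share below the 74.3% of all genes compared. The choice of genes by their C10 level bears on this share as well. *Mme*, which encodes the membrane metallo-endopeptidase CD10, was at 100.2 and 118 CPM in C10 and 90.7 and 101 CPM in C13, but at 3.63 and 3.73 CPM in C8. *Ptn*, the growth factor pleiotrophin, was at 213 and 184 CPM in C10, 455 and 453 CPM in C13 and 10.8 and 13.3 CPM in C8. *Gas6*, the ligand of the TAM receptor kinases, was at 323 and 359 CPM in C10, 343 and 312 CPM in C13 and 23.9 and 35.7 CPM in C8. For all 3 genes C10 lay closer, as a ratio, to the basal cells than to its alveolar neighbour. *Vim*, which encodes the intermediate filament vimentin, was at 87.2 and 97.3 CPM in C10, 233 and 197 CPM in C13 and 9.53 and 10.8 CPM in C8. *Cryab*, a small heat shock protein, was at 413 and 379 CPM in C10 and 258 and 184 CPM in C13, against 43.6 and 43.9 CPM in C8. *Sostdc1*, a secreted inhibitor of BMP and Wnt signals, was at 38.3 and 49.3 CPM in C10 and 114 and 54.4 CPM in C13, and at 1.85 and 0.683 CPM in C8. Most of the set was also present in C6 of the NP mice, so it was not shared by C10 and basal cells alone. *Mme* was at 96.3 and 89.99 CPM in C6, *Ptn* at 145 and 141 CPM and *Gas6* at 460 and 519 CPM. *Clca3a2* was at 264 and 233 CPM there and *S100a6* at 4165 and 4052 CPM. *Vim* (9.66 and 19.9 CPM) and *Sostdc1* (2.72 and 5.81 CPM) were low in C6. In C11 *Vim* was at 160 and 91.7 CPM and *Sostdc1* at 50.9 and 51.7 CPM.

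The genes that define basal cells were far below their basal level in C10, though mostly above C8. Of the 15 genes of the basal and contractile list, 13 were in C10 below 5% of their C13 level in both mice. *Acta2*, the smooth muscle actin, was at 88.0 and 122 CPM in C10, 73.5 and 69.3 CPM in C8 and 14200.0 and 10565 CPM in C13, so that C10 reached 0.62% and 1.16% of the basal level and C8 0.517% and 0.656%. *Krt14*, the keratin of the basal layer, reached 1.04% and 2.21% of its C13 level, *Krt5* 0.958% and 1.20% and *Trp63*, the basal transcription factor, 1.29% and 0.373%. In comparison, *Mme* in C10 was at 110.5% and 117% of C13, *Ptn* at 46.7% and 40.6% and *Gas6* at 94.1% and 115%. Within a mouse the genes were therefore not in 1 ratio to basal cells, and a part of basal RNA or of basal cells in these values was not tested further. The exceptions on the list were *Vim* (37.4% and 49.4%) and *Oxtr*, the oxytocin receptor (48.1% and 39.8%), and *Oxtr* did not reach 2-fold against C8 (36.0 and 25 against 20.4 and 15.9 CPM). Against C8, 2 of 9 list members compared were called higher, *Vim* and *Tagln*, against 2.64% of all genes. Of the 9, 8 had a higher level in C10 in both mice and 0 a lower one, against 45.1% and 30.3% of all genes. Their median log2 ratio was 0.56 (0.51 and 0.78 in each mouse). *Tagln*, an actin-binding protein of smooth muscle, was at 44.4 and 58.6 CPM. It kept its call under 5 of 11 alternatives and lost it with TMM factors and with thinning, among others. *Krt17* was at 45.9 and 99.2 CPM in C10 and 24.9 and 31.8 CPM in C8, above C8 in both mice. *Krt14* was at 33.7 and 69.2 CPM in C10 and 33.5 and 34.3 CPM in C8, level with it in the first mouse and above it in the second. *Krt14* was detected in 6.74% and 9.52% of thinned C10 cells and 9.61% and 9.46% of thinned C8 cells.

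**Figure D3:**
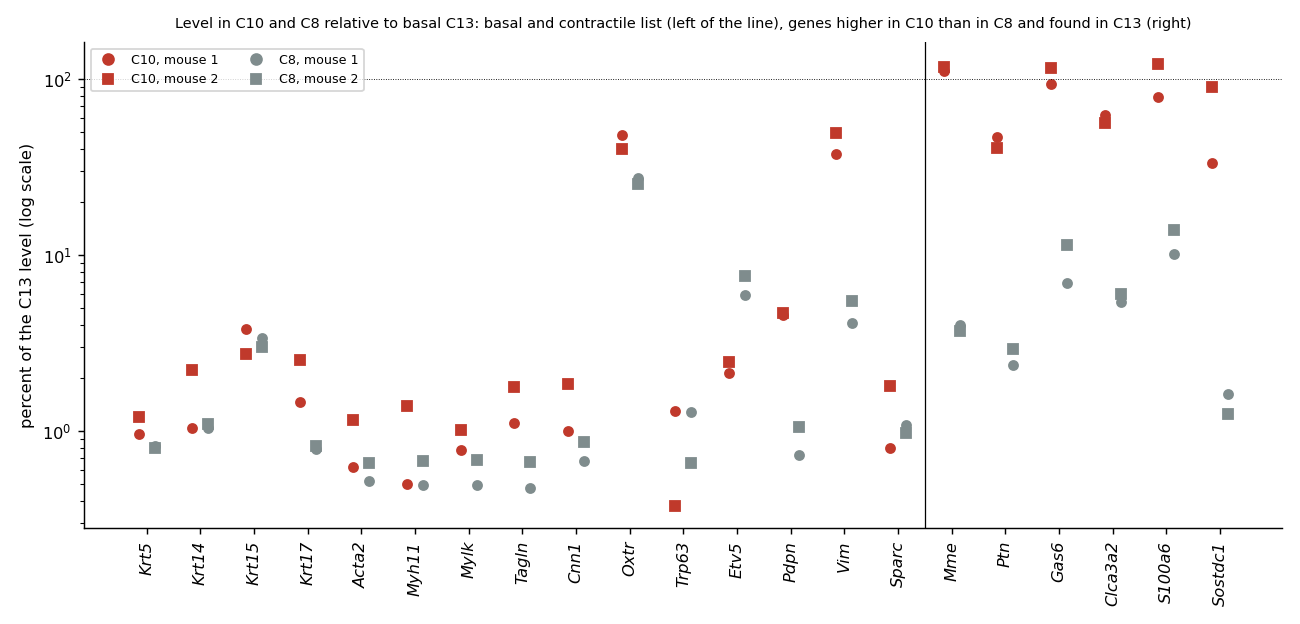
Level in C10 (red) and C8 (grey) as a percentage of the level in basal C13 of the same mouse (log scale; circles and squares are the first and second mouse). Left of the line are the 15 genes of the basal and contractile list, of which all but Oxtr and Vim lie below 5% in C10; right of the line are the other 6 genes from the 15 largest ratios of C10 over C8 whose C13 level was at least 50% of that in C10.

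Milk protein genes had the lowest median ratio of the lists compared. All 8 genes of the list had a lower level in C10 than in C8 in both mice, against 30.3% of all genes. The 2-fold rule was passed by 7 (all but *Csn1s2b*), against 1.34% of all genes. The median log2 ratio was -4.32 against 0.08 for all genes. Together they took 0.408% and 0.203% of the UMIs of C10 and 9.67% and 5.74% of those of C8. The basal and hormone-sensing clusters C13 and C5 served as the background, with a share of 0.178% and 0.0942% in C13 and 0.184% and 0.0991% in C5. The source of their milk protein UMIs, free transcripts or other, was not tested. *Csn1s2a*, one of the calcium-sensitive caseins, was at 403 and 196 CPM in C10, below the 522 and 251 CPM of C13 and below the 39297 and 21270.4 CPM of C8. *Glycam1* (71.2 and 26.8 CPM) was at the level of C13 too (90.7 and 28.6 CPM), and *Wap*, the whey acidic protein, had 6 UMIs in the C10 cells of the first mouse and 0 in those of the second. For these genes C10 did not exceed the background. *Csn2*, the β-casein, stood somewhat above it, at 1188 and 605 CPM against 635 and 354 CPM in C13. *Csn1s1* was 2.95 and 2.75 times its C13 level. *Csn3*, the κ-casein that stabilises the casein micelle, was 10.7 and 7.78 times its C13 level, with 1182 and 553 CPM in C10, 110.5 and 71.1 CPM in C13 and 4958 and 2836 CPM in C8. The milk genes of C10 were thus not in 1 ratio to those of C13. In C5 the ratio to C13 was 1.02 and 0.996 for *Csn2*, 1.08 and 0.987 for *Csn1s1* and 1.17 and 1.34 for *Csn1s2a*. For *Csn3* it was 0.514 and 0.326, from 7 and 6 UMIs in C5, so C5 was not in 1 ratio to C13 either. *Csn3* was also found in C6 of the NP mice, at 743 and 1413 CPM, where *Csn2* was at 0.604 and 0.415 CPM.

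The upstream sequence of *Csn2* is shown because the lactogenic factor Stat5, which acts below the prolactin receptor, is known to act on it, and that of *Fcgbp* as the gene with a high ratio in the other direction. The 250 bases before its RefSeq start (GRCm38.p6, chr5:87699426-87699675, minus strand) held 1 match to the STAT motif TTCNNNGAA, which reads the same on both strands and is in capitals. The same window of *Fcgbp* (chr7:28070986-28071235, plus strand) held 0 matches. Of 32851 RefSeq windows of this length, 7.02% held a match. A match is a description of the letters and was not related to binding here.
Csn2: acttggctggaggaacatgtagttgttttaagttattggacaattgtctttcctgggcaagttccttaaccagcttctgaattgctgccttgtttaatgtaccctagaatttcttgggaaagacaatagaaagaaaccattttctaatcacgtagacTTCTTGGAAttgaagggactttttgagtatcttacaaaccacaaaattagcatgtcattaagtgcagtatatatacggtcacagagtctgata
Fcgbp: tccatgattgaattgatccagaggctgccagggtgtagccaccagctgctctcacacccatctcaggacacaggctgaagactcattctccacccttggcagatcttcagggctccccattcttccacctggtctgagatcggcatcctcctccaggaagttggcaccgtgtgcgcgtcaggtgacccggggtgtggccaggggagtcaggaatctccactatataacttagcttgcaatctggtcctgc

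C10 cells differed among themselves in milk protein content. The median C10 cell gave 0.299% and 0.147% of its UMIs to the 8 genes, with a range of 0.13% to 1.38% in the first mouse and 0.0263% to 0.95% in the second. The medians were 9.02% and 4.84% in C8 and 0.167% and 0.0876% in C13. In all, 45 of 89 and 50 of 126 C10 cells lay above the 95th percentile of C13, at 0.293% and 0.176%, and 30 and 33 C10 cells lay within 25% of this limit, so the limit divides a range of values. The 5th percentile of C8 was exceeded by 1 and 7 C10 cells. Some C10 cells thus carried more milk transcripts than nearly all basal cells of the same mouse, and few reached the range of C8. In the C10 cells above the limit, summed, *Fcgbp* was at 418 and 419 CPM, and in those below it at 706 and 912 CPM. *Aldh1a3* was at 314 and 343 CPM above and 448 and 529.8 CPM below the limit. *Kit* was at 195 and 196 CPM above and 217 and 251 CPM below it. Across C10 cells the milk protein share and the summed share of *Kit*, *Aldh1a3*, *Fcgbp* and *Tm4sf1* ran in opposite directions, with Spearman's rho of -0.55 (89 cells) and -0.32 (126 cells). Both shares come from the same library and the same total per cell. Depth was 8842 and 7582 UMIs (median) above and 9930.5 and 9370.5 UMIs below the limit.

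**Figure D4:**
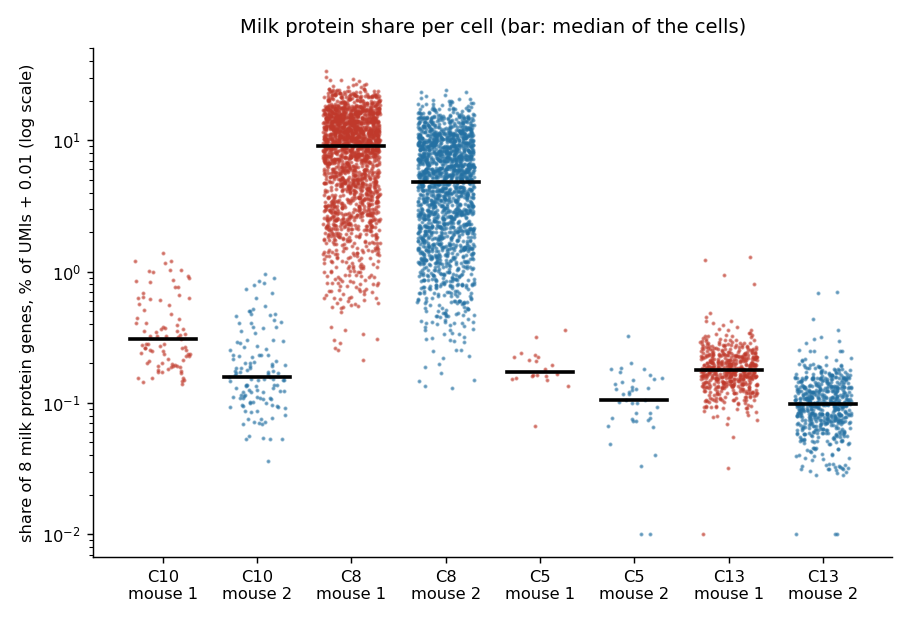
Share of the UMIs of each cell that came from the 8 milk protein genes (percent with 0.01 added, log scale) by cluster and mouse; each point is a cell and bars are medians. C10 cells lie between the background of C5 and C13 and the bulk of C8, with medians of 0.299% and 0.147%.

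Genes of milk fat synthesis and secretion had the second lowest median. Of 21 members compared, 11 were lower in C10 than in C8 and 1 was higher, against 1.34% and 2.64% of all genes. The median log2 ratio was -1.06. *Plin2*, the protein that coats lipid droplets, was at 125 and 102 CPM in C10 and 1059.5 and 1044 CPM in C8, and thus at the C13 level (127 and 150.3 CPM). *Cd36*, a fatty acid transporter, had log2 ratios of -3.99 and -3.81, and *Lpl*, lipoprotein lipase, had ratios of -2.73 and -3.12. *Thrsp*, a regulator of lipogenesis, was at 5.36 and 4.37 CPM against 429 and 215 CPM, and *Fabp3*, a fatty acid binding protein, at 17.6 and 3.74 against 774 and 301 CPM. *Olah*, the thioesterase that releases medium-chain fatty acids, was at 4.59 and 3.74 against 125 and 85.6 CPM. The enzymes of fatty acid synthesis were less changed: *Scd1* had a ratio of -2.02 and -2.05, *Acly* one of -1.24 and -1.0, and *Fasn* one of -0.86 and -0.45, below the limit. The calls of *Acly*, *Dbi* and *Xdh* were lost when each cell was scaled to its own total, and other members kept theirs there. *Btn1a1*, needed for the secretion of fat globules, was at 72.7 and 51.2 CPM in C10 and 115 and 82.8 CPM in C8. It did not pass the rule, and with 1.01 and 0.915 CPM in C13 and 0 UMIs in C5 its level in C10 was above the background. The member that was higher in C10 was *Mfge8*, a protein of the milk fat globule that also binds apoptotic cells, at 813 and 775 CPM against 183 and 199 CPM in C8. It was at 705 and 777 CPM in C13 and 1763 and 1436 CPM in C6.

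Further genes low in C10 included the metallothioneins, which bind zinc and copper. *Mt1* was at 409 and 461 CPM in C10, below C8, C13 and C5 (2914 and 2669 in C8, 6788 and 6275 in C13 and 2183 and 1842 CPM in C5), and *Mt2* at 106 and 123 CPM against 1471 and 1222 CPM in C8. *Trf*, the iron carrier transferrin, was at 268 and 241 CPM against 1661 and 1504 CPM, and *Folr1*, a folate receptor, at 18.4 and 15.6 against 186 and 139 CPM. *Spp1*, which encodes osteopontin, had 2 UMIs in the first mouse and 0 in the second. *Mt1* and *Trf* were named after their values had been seen.

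The transcription factors of the secretory lineage were compared as a list. Of 12 compared, 1 was higher and 1 lower in C10 than in C8, against 2.64% and 1.34% of all genes. *Elf5*, the main factor of alveolar fate, was at 256 and 208 CPM in C10 and 495 and 416 CPM in C8, log2 ratios of -0.94 and -0.99 that fell just short of the rule and passed it with TMM factors. Its level in C10 was above that of C6 (54.0 and 76.7 CPM) and of C13 (8.34 and 8.01 CPM). *Ehf*, a related ETS factor, was at 515 and 485 CPM in C10 and 381 and 506 CPM in C8. *Cebpb*, a factor of secretory differentiation, had ratios of -1.04 and -0.98. *Stat5a*, the prolactin-activated factor, had ratios of -0.60 and -0.64, and *Gata3*, *Nfib* and *Id2* had ratios between -0.28 and 0.44. The called factors were *Foxs1* (17.6 and 17.5 against 40.9 and 40.3 CPM) and *Tbx3* (16.8 and 16.2 against 5.22 and 4.87 CPM), both at low levels. The *Tbx3* call was kept under 7 of 11 alternatives and lost with TMM factors, among others. The *Foxs1* call was kept under 8 of 11 and lost when cells were thinned, among others.

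Hormone receptors were scarce in C10. *Pgr*, the progesterone receptor, was at 2.30 and 1.25 CPM in C10 and 114 and 120.0 CPM in C5. *Esr1*, the oestrogen receptor, was at 2.30 and 2.5 CPM in C10 and 48.7 and 69.7 CPM in C5. *Prlr*, the prolactin receptor, was at 34.4 and 32.4 CPM in C10, 57.9 and 55.6 CPM in C8 and 811 and 1060.5 CPM in C5. *Tnfrsf11a*, the receptor RANK, was at 6.89 and 7.49 CPM in C10 and 16.6 and 13.7 CPM in C8. None of 12 genes of the RANK and prolactin list was called, and the median ratio of 0.15 turned to -0.0062 with TMM factors. *Tnfsf11*, which encodes RANK ligand and marked C5 (617 and 677 CPM), was at 6.89 and 21.2 CPM in C10, but these UMIs came from 1 of 89 and 5 of 126 cells. *Tph1*, which was likewise high in C5, was held by 1 and 3 C10 cells. Of the hormone-sensing list, 2 of 8 genes compared were higher than in C8, against 2.64% of all genes. They were *S100a6* (572 and 896 CPM, also high in C13 and C6) and *Bhlhe41*, a circadian repressor (106 and 119.8 against 11.8 and 18.0 CPM).

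Ligands and receptors of the growth factor pathways were compared by their lists. Of all genes compared with C8, 2.64% were higher and 1.34% lower. Of the Wnt and R-spondin list, 2 of 8 were higher than in C8. The Wnt ligand *Wnt7b* was at 16.1 and 25 CPM in C10, 0.718 and 0.638 CPM in C8 and 60.7 and 52.7 CPM in C6. Its call was lost in the first mouse alone, with a pseudocount of 20 CPM and with a mean of at least 50 CPM. *Wnt5b* was at 135 and 164 CPM against 47.6 and 76.5 CPM, a call kept under 8 of 11 alternatives and lost with TMM factors, among others. *Rspo1*, which strengthens Wnt signals, was at 448 and 372 CPM in C10 and 277 and 345 CPM in C8, against 29.6 and 17.4 CPM in C6. Of the EGF family, 1 of 6 was called: *Hbegf*, a ligand of the EGF receptor, was at 194 and 174 against 93.9 and 81.6 CPM and lost its call under 5 alternatives, TMM factors among them. Of the Notch pathway, 0 of 8 passed the rule, although the receptor *Notch3* missed it only in the second mouse (38.3 and 41.8 against 13.9 and 18.4 CPM) and *Notch1* was at 119 and 109.8 against 68.8 and 77.0 CPM.

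Transcripts of mitosis and of DNA replication were frequent in C10 cells. The mitosis list was detected with at least 3 UMIs in 69.7% and 68.3% of C10 cells and 65.5% and 59.3% of C8 cells, and in 24.0% and 19.5% of C13 cells. After thinning to 3000 UMIs the shares were 56.2% and 42.1% in C10 (exact 95% intervals 45.3% to 66.7% and 33.3% to 51.2%) and 51.1% and 45.3% in C8, so that C10 lay above C8 in the first and below it in the second mouse. Of 22 mitosis genes, 0 were called in either direction, the median ratio was -0.45, and 16 had a lower level in C10 in both mice, against 30.3% of all genes compared. *Mki67*, a marker of cycling cells, was at 119 and 112 CPM in C10 and 158 and 155 CPM in C8, and *Cdc20*, an activator of the anaphase-promoting complex, at 59.7 and 38.7 CPM in C10 and 91.9 and 97.5 CPM in C8. Neither passed the 2-fold rule. Genes of DNA replication went the other way: 13 of 17 had a higher level in C10 in both mice, against 45.1% of all genes, with a median of 0.32 (0.16 with TMM factors) and 0 called. Their sum was 1048 and 872 CPM in C10 and 793 and 773 CPM in C8. At least 3 UMIs of this list were found in 49.4% and 43.7% of thinned C10 cells (intervals 38.7% to 60.2% and 34.8% to 52.8%) and 33.7% and 31.0% of thinned C8 cells, and without thinning in 84.3% and 77.8% of C10 and 68.2% and 62.1% of C8 cells. In thinned C13 cells the share was 8.76% and 6.90%. *Mcm6*, a subunit of the replicative helicase, was at 93.3 and 89.2 CPM in C10 and 68.5 and 73.9 CPM in C8. Of the genes that control entry into the cycle, 1 of 8 was higher, against 2.64% of all genes. It was *Ccnd1*, cyclin D1, at 486 and 529 CPM in C10, 194 and 243 CPM in C8 and 72.0 and 67.7 CPM in C13. This call was lost with TMM factors. *Cdk6*, a partner kinase of cyclin D1, was at 58.1 and 63.0 against 27.1 and 31.4 CPM. With 5 CPM added to both levels, this was just under 2-fold.

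Immediate early genes, which are switched on by growth signals and also by tissue dissociation, were compared as a further list. Of 22 compared with C8, 4 were called higher (*Fosb*, *Egr1*, *Klf4* and *Hspa1a*), against 2.64% of all genes. A higher level in both mice was found for 18, against 45.1% of all genes, with a median ratio of 0.41 (0.26 with TMM factors). The calls of *Fosb* and *Egr1* were lost with TMM factors. *Fos* was at 3066 and 2685 CPM in C10 and 1839 and 1262 CPM in C8, and the heat shock gene *Hspa1a* at 1478 and 621 CPM in C10 and 509 and 242 CPM in C8. The sum of the list was 20512 and 18736 CPM in C10, 14843 and 12628 CPM in C8 and 13128 and 9052 CPM in C13, and the part of the tissue digestion in these values was not tested. The secreted defence genes went both ways, with 4 higher and 4 lower of 15, against 2.64% and 1.34% of all genes. *Ltf*, the iron-binding milk protein lactoferrin, was at 129 and 76.7 CPM in C10 and 32.6 and 18.1 CPM in C8, with 4 and 0 UMIs in all C13 cells. The chemokine *Cxcl1* was at 404 and 193 CPM in C10, 81.3 and 35.5 CPM in C8 and 2651 and 2837 CPM in C6. *Cxcl2* was at 97.9 and 50.5 CPM in C10 and 44.5 and 17.2 CPM in C8. Its call was kept under 7 of 11 alternatives and lost with TMM factors, among others. *Pigr*, which carries IgA into milk, was lower (4.59 and 0.624 against 41.6 and 26.7 CPM), as was *Lbp* (8.42 and 3.74 against 38.8 and 38.0 CPM). *Wfdc18*, an early alveolar secretory protein, was at 11981 and 8980.0 CPM in C10 and 15975 and 12878 CPM in C8, below the 2-fold limit and 45.9 and 36.5 times its C13 level. *Muc15*, a mucin of the milk fat globule membrane, was at 986 and 849.7 against 2019 and 1823 CPM, and was 22.4 and 19.9 times its C13 level. Its call against C8 was lost when each cell was scaled to its own total or thinned.

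Larger gene groups shifted by less than 2-fold. Of 75 nuclear genes of oxidative phosphorylation, 72 had a lower level in C10 than in C8 in both mice, against 30.3% of all genes, with a median ratio of -0.54 (-0.71 with TMM factors). Their sum was 23058 and 21662 CPM in C10 and 32801 and 30148 CPM in C8. Of 82 ribosomal protein genes, 77 were higher in both mice, against 45.1% of all genes (median 0.29, or 0.11 with TMM factors), with sums of 345755 and 351921 CPM in C10 and 271923 and 295800 CPM in C8. No gene of either group was called at 2-fold. For translocation and folding in the endoplasmic reticulum the median was -0.16, and 1 of 19 genes was lower, against 1.34% of all genes. It was *Xbp1*, a factor needed for secretory capacity, at 68.1 and 59.3 CPM against 179 and 167 CPM. Antigen presentation and interferon genes had a median of -0.24 and cholesterol synthesis genes one of 0.19, with 0 of 17 and 0 of 15 called. For adhesion and tight junction genes, 2 of 17 were higher, against 2.64% of all genes. They were the given marker *Tm4sf1*, whose ratio follows from the division of the clusters, and the hyaluronan receptor *Cd44* (79.6 and 84.8 against 21.9 and 29.1 CPM).

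**Figure D5:**
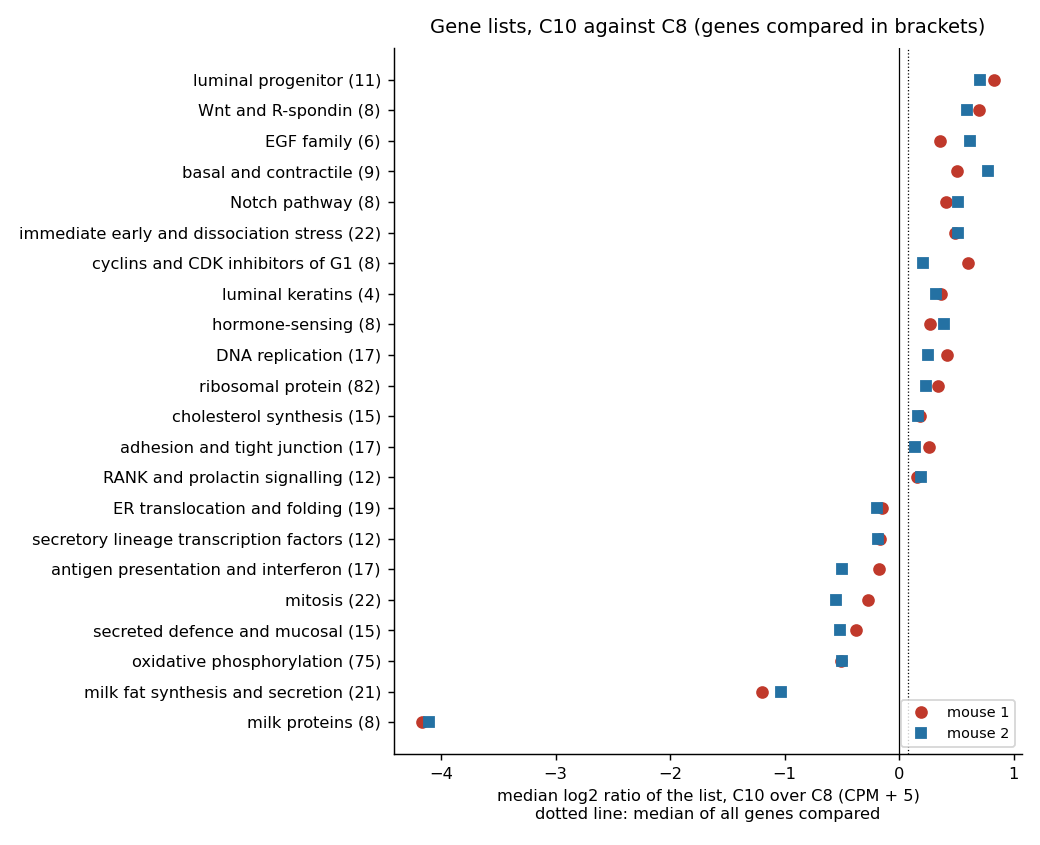
Median log2 ratio of C10 over C8 for each gene list in the first (circles) and second (squares) gestation mouse, on CPM with 5 added, with the number of genes compared in brackets; the dotted line is the median of all genes. Milk protein and milk fat lists lie far to the left (-4.17 and -4.11 for milk proteins). The luminal progenitor list, which includes the given markers Kit and Aldh1a3, is at 0.83 and 0.71.

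C10 had the keratins of luminal cells. *Krt18* was at 2538 and 3138 CPM in C10, 2563 and 3177 CPM in C8 and 183 and 182 CPM in C13. *Krt8*, its partner in the filament, was at 1837 and 2333 CPM in C10 and 1681 and 1994 CPM in C8. *Krt7*, another keratin of simple epithelia, was at 200.4 and 208 CPM in C10 but 25 and 35.6 CPM in C8, with 536 and 472 CPM in C5 and 584 and 461 CPM in C6. *Krt19* was at 1345 and 1482 against 886 and 1102 CPM and did not reach 2-fold.

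C10 was also compared with all other luminal and basal cells together, a reference made up mostly of C8. C8 supplied 26454518 of its 30566665 UMIs in the first mouse and 21959199 of 26690584 in the second. Against these cells within each mouse (2476 and 2466 cells, mostly C8), 129 genes were higher and 213 lower in C10 among 7703 compared, or 1.67% and 2.77%. With C5, C8 and C13 weighted equally, 206 were higher and 530 lower. *Fcgbp*, *3110079O15Rik*, *Aldh1a3*, *Ltbp1* and *Lect1* had the largest ratios, followed by *Crip1*, *Slc5a7*, *Ly6d* and *Basp1*. *Ly6d*, a surface protein, was at 179 and 236 CPM in C10 and 18.4 and 33.0 CPM in the other cells. *Basp1*, a membrane-bound signalling protein, was at 357 and 479.8 against 42.4 and 77.7 CPM. Both were higher in C6 than in C10, *Ly6d* at 390 and 427 CPM and *Basp1* at 1393 and 1114 CPM. In C11 *Ly6d* was at 713 and 1528 CPM and *Basp1* at 166 and 377 CPM. *Slc5a8*, a transporter of short-chain fatty acids, was at 133 and 147 CPM in C10, 24.8 and 31.6 CPM in C8 and 2.02 and 2.75 CPM in C13. The lower genes were those of milk (*Csn1s2a*, *Glycam1*, *Fabp3*, *Csn2*, *Thrsp*) and those of the basal cells (*Acta2*, *Mylk*, *Igfbp2*, *Tpm2*, *Actg2*). *Igfbp2* was at 6.12 and 5.61 CPM in C10, 4.76 and 5.10 CPM in C8 and 972 and 798 CPM in C13.

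Markers of cells outside the epithelium were mostly scarce in C10. The 11 immune markers summed to 55.1 and 57.4 CPM in C10 and 88.3 and 126 CPM in C8, with *Ptprc*, the common leukocyte antigen, at 0 and 0 CPM. The 8 endothelial markers summed to 3.83 and 8.73 CPM and the 10 fibroblast and pericyte markers to 28.3 and 21.2 CPM in C10, against 909 and 716 CPM for the latter in C13. The 9 adipocyte and red cell markers summed to 3.83 and 21.8 CPM in C10, 2.0 and 2.32 CPM in C8 and 617 and 426 CPM in C5. C10 was above C8 in both mice, but few cells carried these UMIs. The haemoglobin gene *Hba-a1* gave 5 UMIs in 1 cell of the first mouse and 28 UMIs in 7 cells of the second.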

How the data were processed

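Mammary cells of 8 mice (2 at each of 4 stages) were dissociated, sorted as EpCAM-positive, lineage-negative cells and profiled with the 10x Genomics 3' v2 kit. Per the study's methods, the authors aligned the reads to the mouse genome (mm10) and counted UMIs with Cell Ranger, removed low-quality cells, and clustered the cells on variable genes. The submitters' processing notes name STAR and mm10. The deposited matrices hold raw UMI counts per gene and cell. The deposited cell annotation gives UMI counts, genes detected and the fraction of mitochondrial transcripts per cell, the quality flags and the cluster names, which were used as given. Doublets were treated as the authors treated them, and no further caller was run.

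Library totals were 13785920 to 35711533 UMIs, and the C10 sums held 1307070 and 1602896 UMIs in the G mice. Of 25806 barcodes, 791 occurred in more than 1 library. UMI counts were summed per mouse and cluster and scaled to CPM. Genes with a mean of at least 10 CPM over the 4 sums of a comparison were compared on log2(CPM + 5), which understates the ratio of low genes. No test was run: clusters were formed from the same genes and each group held 2 mice. Named genes were the 15 with the largest and the 15 with the smallest ratio, ranked by the mouse with the smaller change, among genes at 20 CPM or more in both mice in the higher group, and the members of 27 gene lists. C10, its comparisons and the lists were chosen with earlier results of these data known. Intervals of shares are exact Clopper-Pearson intervals at 95%, and like any limit from counts they cover counting error only. Detection was compared after thinning every cell to 3000 UMIs. TMM factors came from edgeR 4.0.16 in R 4.3.3. Other steps used Python 3.11.15, numpy 2.4.6, scipy 1.17.1 and pandas 2.3.3, and the ratio and call steps were tested on simulated data. Gene positions came from GENCODE M21 (GRCm38) and upstream sequences from RefSeq (GRCm38.p6). The combined matrix of all libraries was not used here. Alternatives were other scalings, pseudocounts, filters and cell weights, each mouse alone and, chosen after seeing the data, the sums without the C10 cell with most UMIs of each mouse.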

Additional observations from a re-analysis of the deposited data

How the results depend on the processing

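No paired analysis was possible because no test was run, so that no fit with and without a replicate block could be compared; every ratio and call was itself taken within a mouse. Counts of called genes were within 1.5-fold of those reported under most alternatives. With a pseudocount of 20 CPM, 82 genes were higher and 60 lower in C10 than in C8, and 61 higher and 115 lower than in the other luminal and basal cells. With a mean of at least 50 CPM these counts were 82 and 51 against C8 (2683 genes compared) and 69 and 78 against the other cells (2749 compared), fewer genes being compared. With C5, C8 and C13 weighted equally, 206 were higher and 530 lower, of which 86 and 174 were shared with the reported genes, and the cause of the rest was not tested. With 1 mouse left out, 257 to 285 genes were higher and 139 to 151 lower than in C8, and 170 to 196 higher (196 without the second mouse) and 243 to 275 lower than in the other cells, since 1 mouse then decides the call. The mean share of cells with mitosis transcripts was 69.0% in C10 and 62.4% in C8, 50.3% and 47.4% after thinning, and 59.5% and 54.7% with at least 5 UMIs. TMM factors moved the median of the RANK and prolactin list from 0.15 to -0.0062; list medians moved by -0.180 to -0.115. Of 66 named or listed genes called against C8, 42 kept their call under all 11 alternatives and 0 were called in the opposite direction; of 87 called against the other cells, 45 kept it under all 12 and 0 were opposite. Depth limits genes at a few CPM, and C5 held only 20 and 41 cells.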
